A study of Homo sapiens with 9 samples.

Results

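Genes of G2 phase and mitosis were followed in SW620, a human colon cancer cell line that was established from a lymph node metastasis. The set is a list of 43 gene symbols, from the cyclins and kinases that start mitosis to the proteins that build the spindle and split the cell, and each symbol was looked up in the table of raw read counts. All 43 were found among its 28307 genes. All 43 also passed the filter on low counts, together with 15619 genes in all. RNA came from 9 cultures in 3 groups of 3 biological replicates, kept for 48 h under the treatment. One group was given 120 µM streptomycin (SM), an aminoglycoside antibiotic, and one was given 120 µM dihydrostreptomycin (DSM), in which the aldehyde of streptomycin is reduced to an alcohol. The third group was left untreated. All 9 cultures were wild-type SW620 cells grown in suspension on coated low-attachment plates, in a defined medium with insulin, basic FGF and EGF. The design text calls the dose an EC50 and names no response for it, 1 cell line was used, and cell cycle phases were not measured in the data used here.

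Entry into mitosis is driven by the kinase CDK1 with B-type cyclins, which CDC25 phosphatases switch on. PLK1 and the Aurora kinases then build the spindle, and the spindle checkpoint delays the separation of the chromosomes until each kinetochore is attached. The anaphase-promoting complex (APC/C) ends mitosis by marking cyclin B and securin for destruction. Transcription of these genes peaks in G2 and mitosis under FOXM1 and the B-MYB-MuvB complex, and MuvB in the DREAM complex represses them in resting cells through a promoter motif called the CHR, often with CCAAT boxes that bind NF-Y.

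Libraries held between 39315662 counts (SM replicate 2) and 65562227 counts (untreated replicate 1), and the 43 genes took between 0.682% (SM replicate 2) and 0.73% of each library's counts. The 3 libraries numbered 1 stood apart on the first principal component of all tested genes (39.6% of the variance), and SM replicate 2 was at the extreme of the second (16%). Libraries of the same number deviated together, so values from a fit that has the replicate number as a block stand beside those of the fit by group alone, and results are also given without single libraries. Epithelial markers such as EPCAM (414 to 463 CPM) and KRT8 (5760 to 7610 CPM) were high in all libraries. CDX2 was between 10 and 15.7 CPM and CDH17 between 4.37 and 8.93 CPM, while KRT20 was at most 0.622 CPM and CDX1 at most 0.019 CPM. Summed over 11 epithelial markers the level ranged from 11300 to 13600 CPM with SM, from 11600 to 14600 CPM with DSM and from 11900 to 14900 CPM in untreated cultures. Of 6 leukocyte markers 4 were under 1 CPM on average, while CD68 was between 12.4 and 22.1 CPM and LYZ between 4.68 and 8.76 CPM. The summed leukocyte level was 22.2 to 24.1 CPM with SM, 23.0 to 28.9 CPM with DSM and 21.0 to 25.7 CPM in untreated cultures. Of 6 fibroblast markers COL3A1 and DCN had 0 counts, COL1A1 was between 7.01 and 13.3 CPM and LUM between 4.98 and 13.7 CPM, and the sum was 12.5 to 24.8 CPM with SM, 16.3 to 25.8 CPM with DSM and 15.6 to 26.9 CPM in untreated cultures. Of 4 endothelial markers CDH5 and KDR were at most 0.0254 CPM, PECAM1 was at most 1.48 CPM and VWF was between 1.29 and 3.01 CPM, with sums of 1.84 to 4.02 CPM with SM, 2.36 to 4.03 CPM with DSM and 2.44 to 4.42 CPM in untreated cultures.

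Promoter windows of 300 bases, 250 before and 50 after the start of the gene, were available from RefSeq (GRCh38.p14) for 36 of the 43 genes. The core of the CHR was searched as TTTGAA and, for the other strand, as TTCAAA. Its variant TTCGAA, which reads the same on both strands, was searched too. The CCAAT box was searched as CCAAT and, for the other strand, as ATTGG. A CHR match was present for 29 of the 36 genes (80.6%), against 15.5% of the 11891 tested genes with a window. A CCAAT match was present for 29 (80.6%), against 42.5% of those genes, and both stood in the windows of 25 (69.4%), against 6.4%. A match describes letters in the window and not a bound site. The windows of CCNB1, CDK1 and PLK1, which carry the entry into mitosis, and of the 5 genes called in a comparison are shown, 1 for each gene, with the matches in that window in capitals. Some genes have several windows in the table and count above if any holds a match; for CDK1 and ECT2, which have 2 each, the window at the start of the RefSeq gene record is shown.
CCNB1 (chr5:69166900-69167199, plus strand): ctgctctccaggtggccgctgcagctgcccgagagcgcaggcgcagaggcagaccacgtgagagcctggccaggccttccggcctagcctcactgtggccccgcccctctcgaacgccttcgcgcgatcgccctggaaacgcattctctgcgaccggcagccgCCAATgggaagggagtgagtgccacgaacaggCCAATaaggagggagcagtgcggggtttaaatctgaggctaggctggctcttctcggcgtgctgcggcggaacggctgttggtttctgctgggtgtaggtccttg
CDK1 (chr10:60778081-60778380, plus strand): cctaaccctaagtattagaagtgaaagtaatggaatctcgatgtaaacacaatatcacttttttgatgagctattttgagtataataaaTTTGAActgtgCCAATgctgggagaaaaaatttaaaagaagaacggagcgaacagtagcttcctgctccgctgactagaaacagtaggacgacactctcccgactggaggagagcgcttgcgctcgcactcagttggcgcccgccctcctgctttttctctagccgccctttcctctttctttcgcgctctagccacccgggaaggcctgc
PLK1 (chr16:23678639-23678938, plus strand): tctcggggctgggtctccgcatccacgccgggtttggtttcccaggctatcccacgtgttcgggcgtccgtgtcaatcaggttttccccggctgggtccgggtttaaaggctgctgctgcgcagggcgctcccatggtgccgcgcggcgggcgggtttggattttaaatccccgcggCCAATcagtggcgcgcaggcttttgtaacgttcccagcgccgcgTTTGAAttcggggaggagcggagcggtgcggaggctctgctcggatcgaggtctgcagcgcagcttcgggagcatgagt
ECT2 (chr3:172750476-172750775, plus strand): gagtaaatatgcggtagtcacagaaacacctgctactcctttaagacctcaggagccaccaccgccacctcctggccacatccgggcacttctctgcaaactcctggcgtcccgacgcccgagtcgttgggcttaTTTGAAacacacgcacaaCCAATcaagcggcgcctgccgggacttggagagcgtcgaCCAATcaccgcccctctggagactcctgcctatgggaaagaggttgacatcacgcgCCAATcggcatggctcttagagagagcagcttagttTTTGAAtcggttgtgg
ANLN (chr7:36389612-36389911, plus strand): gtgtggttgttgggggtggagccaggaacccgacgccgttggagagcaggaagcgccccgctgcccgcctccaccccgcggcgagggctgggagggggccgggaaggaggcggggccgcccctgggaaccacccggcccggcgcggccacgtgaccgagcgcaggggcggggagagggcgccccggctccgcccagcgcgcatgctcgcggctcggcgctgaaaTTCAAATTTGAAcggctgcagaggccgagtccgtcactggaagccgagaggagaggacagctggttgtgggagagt
CENPE (chr4:103198294-103198593, minus strand): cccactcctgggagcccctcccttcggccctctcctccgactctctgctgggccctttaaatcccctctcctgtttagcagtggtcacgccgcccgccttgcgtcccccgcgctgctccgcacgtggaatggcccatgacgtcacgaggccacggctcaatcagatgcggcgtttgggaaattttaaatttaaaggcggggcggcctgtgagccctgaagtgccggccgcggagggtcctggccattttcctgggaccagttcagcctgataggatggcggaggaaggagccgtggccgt
DLGAP5 (chr14:55191536-55191835, minus strand): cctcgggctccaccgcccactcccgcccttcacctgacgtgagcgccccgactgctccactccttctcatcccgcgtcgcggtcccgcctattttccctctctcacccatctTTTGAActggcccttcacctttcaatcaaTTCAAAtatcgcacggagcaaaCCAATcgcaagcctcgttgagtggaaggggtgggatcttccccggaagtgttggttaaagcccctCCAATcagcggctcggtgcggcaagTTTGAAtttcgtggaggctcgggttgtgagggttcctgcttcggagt
MKI67 (chr10:128126374-128126673, minus strand): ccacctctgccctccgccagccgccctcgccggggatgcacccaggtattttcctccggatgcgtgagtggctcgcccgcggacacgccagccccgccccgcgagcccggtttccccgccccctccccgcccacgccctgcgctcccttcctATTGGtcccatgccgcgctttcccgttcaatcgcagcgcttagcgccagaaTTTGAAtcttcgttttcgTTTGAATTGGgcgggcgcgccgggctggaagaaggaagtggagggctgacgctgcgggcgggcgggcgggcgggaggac
In PLK1 the CCAAT box began 73 bases and the CHR 29 bases before the start. MKI67 had a CHR at the same distance, and there the CHR and a reversed CCAAT box share 1 letter. ANLN held 2 CHR matches end to end and no CCAAT box, CCNB1 held 2 CCAAT boxes and no CHR, and CENPE held neither. DLGAP5 had 3 CHR and 2 CCAAT matches and ECT2 had 2 CHR and 3 CCAAT matches.

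Transcript levels within the set spanned a wide range in untreated cultures. On the scale of CPM per kilobase of exon (GENCODE v29 union exons), CKS2, the small CDK1-binding subunit, stood at 200 ± 23.4, and CDC20, the activator of the APC/C, at 121 ± 1.86 (SD, n = 3 each). Cyclin B1 (CCNB1) followed at 93.4 ± 2.48 and the ubiquitin-conjugating enzyme UBE2C at 91.8 ± 2.82, 2 neighbours whose SDs overlap. MKI67, the nuclear proliferation antigen, was at 84.9 ± 2.89 on the same scale and had the most reads of the set, 36668 to 71368 per library. The kinetochore motor CENPE (4.35 ± 0.238) and the phosphatase CDC25C (2.94 ± 0.285) had the lowest levels per kilobase, and CDC25C had the fewest reads, 415 to 631.

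Averaged over the 43 genes, expression was slightly lower with SM than in untreated or DSM cultures, and about equal with DSM and without treatment. The mean log2 CPM of the set was 6.816, 6.784 and 6.815 in SM replicates 1 to 3 and 6.879, 6.857 and 6.822 in DSM replicates 1 to 3. In untreated replicates 1 to 3 it was 6.854, 6.848 and 6.860. Every SM culture lay below every untreated and every DSM culture, while DSM and untreated cultures overlapped. The SM mean was 0.049 below the untreated mean on the log2 scale (SD of the 3 pair differences 0.013), with differences of -0.038, -0.063 and -0.045 in replicate pairs 1 to 3. Against DSM the SM mean differed by -0.048 (SD of the pairs 0.036), with -0.063, -0.073 and -0.007 in the pairs. DSM minus untreated was -0.001 (SD of the pairs 0.033), and 2 pairs were above 0 and 1 below. Without SM replicate 2, the lowest library, the mean log2 fold change of the set was -0.038 against untreated and -0.038 against DSM in the fit by group. These are bulk RNA data, so fewer cells in G2 and mitosis cannot be told apart from less of these mRNAs per cell.

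**Figure D1:**
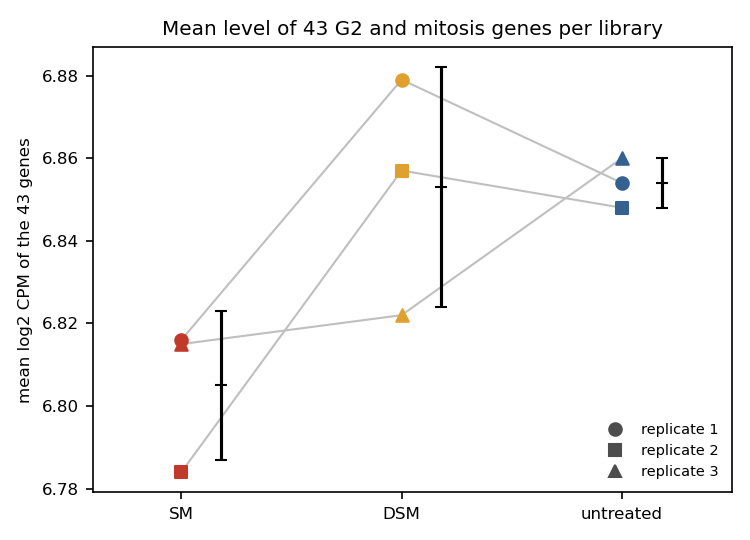
Mean log2 CPM of the 43 G2 and mitosis genes (vertical axis, cut to the range of the data) in each library by group. Coloured points are libraries, marker shapes give the replicate number, grey lines join libraries of 1 number, and black bars are the group mean and SD (n = 3). The SM cultures lie between 6.784 and 6.816, below the untreated cultures at 6.848 to 6.860.

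Gene by gene, SM against untreated cultures gave small differences that mostly ran in 1 direction. The fit by group alone (edgeR quasi-likelihood, Benjamini-Hochberg over all tested genes) called 0 of the 43 genes, and 0.0192% of all tested genes, and DESeq2 and limma voom also called 0 of the 43. At an unadjusted p under 0.05 that edgeR fit had 2 of the 43 lower (CCNB1 and KIF11), where 1.11% of all genes were lower, and 0 higher, where 1.23% were. With the replicate block 2 genes fell, ECT2 and ANLN, against 1.54% of all genes, and 0 rose, against 1.2% of all genes. The log2 fold change of that fit was negative for 35 of the 43 genes, against 50.6% of all genes, with a median of -0.054 over the set and -0.0009 over all genes. At an unadjusted blocked p under 0.05, 14 of the 43 were lower (32.6%), where 7.79% of all genes were. These 14 include ECT2 and ANLN, and 0 of the 43 were higher, where 7.05% of all genes were. Of the 43, 23 were lower in all 3 replicate pairs, against 18.9% of all genes, and 2, CDC25B and CDC25C, were higher in all 3, against 17.4%. The 43 genes varied together in part across the 9 libraries. After removal of group and number means, correlations of gene pairs had a median of 0.236 and quartiles of -0.181 and 0.604. The counts here and below are therefore not counts of independent genes.

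For DSM against untreated cultures the signs were evenly split. With or without the block edgeR called 0 of the 43 genes and 0% of all tested genes (0 of 15619), and DESeq2 and limma voom called 0 of the 43 in either design. By group alone 0 of the 43 had an unadjusted p under 0.05, where 0.327% of all genes were lower and 0.333% higher, and with the block CCNA2 and CCNB1 did, both lower, where 2.23% of all genes were lower and 1.93% higher. The blocked log2 fold change was negative for 22 genes and positive for 21. Lower in all 3 pairs were 7 of the 43, against 15.1% of all genes, and 8 were higher in all 3, against 14.3%. Every interval of the 43 genes lay between -0.19 and 0.20 on the log2 scale (95%, with the block).

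SM against DSM, the 2 antibiotics at the same dose and time, gave the largest single differences. By group alone edgeR called 0 of the 43 genes and 0% of all tested genes, and DESeq2 and limma voom again called 0 of the 43. In that edgeR fit 3 of the 43, CENPE, DLGAP5 and MKI67, were lower at an unadjusted p under 0.05, where 1.18% of all genes were lower, and 0 were higher, where 1.35% were. With the replicate block 4 genes fell with SM relative to DSM, CENPE, DLGAP5, ANLN and MKI67, against 2.15% of all genes, and 0 rose, against 1.73%. Lower in all 3 pairs were 21 genes, against 16.2% of all genes, and higher in all 3 were 3 genes (CKAP5, CDC25C and MAD2L1), against 16.3%. For the 39 genes that did not pass, the 95% intervals of the difference lay between -0.23 and 0.23 on the log2 scale, and 8 of these lay wholly below 0 and 1, that of MAD2L1, wholly above. Together with the 4 called genes that made 12 of the 43 lower at an unadjusted blocked p under 0.05, where 8.52% of all genes were lower, and 1 higher, where 7.71% were. The 3 comparisons between the groups share libraries, so they are not independent of each other. With p-values adjusted over all 3 comparisons together the same 6 calls stand (ECT2 and ANLN against untreated, and CENPE, DLGAP5, ANLN and MKI67 against DSM), with adjusted p from 0.00401 (ANLN against DSM) to 0.0446 (ANLN against untreated). In the fit by group alone the adjusted p of CENPE, DLGAP5, ANLN and MKI67 against DSM was 0.9998.

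**Figure D2:**
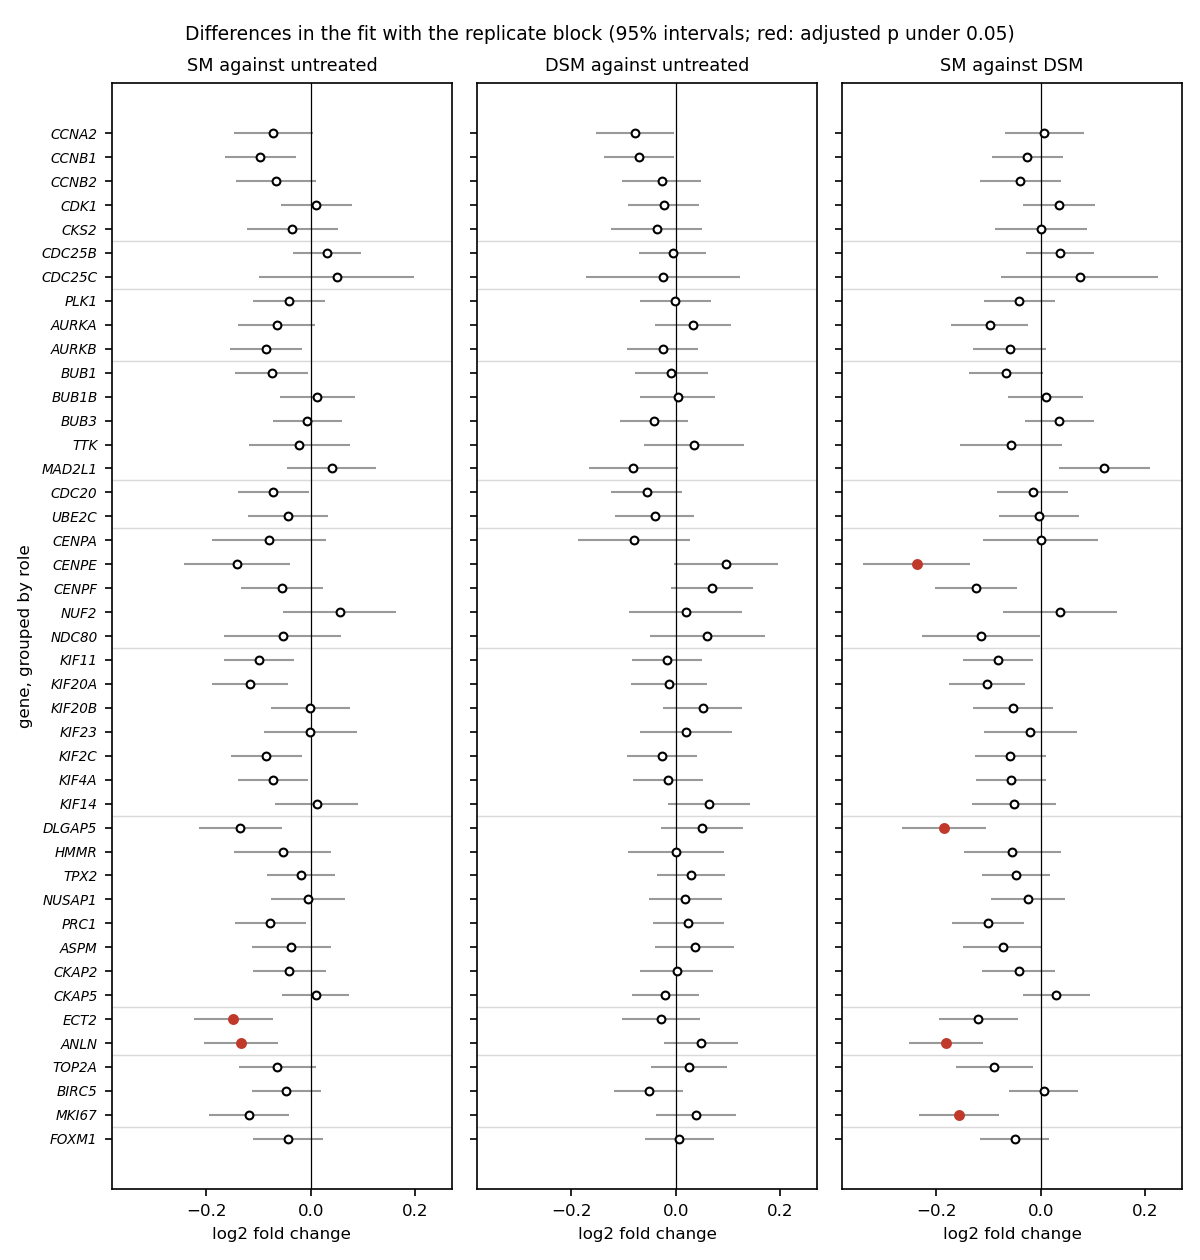
Log2 fold change (horizontal axis) of each of the 43 genes (rows, grouped by role) in the edgeR fit with the replicate block, for SM against untreated, DSM against untreated and SM against DSM. Points are estimates, lines are 95% intervals, and red points have an adjusted p under 0.05: ECT2 and ANLN on the left, none in the middle, and CENPE, DLGAP5, ANLN and MKI67 on the right.

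ECT2 and ANLN, the 2 genes grouped here as cytokinesis scaffold, were the ones that passed against untreated. PRC1, KIF20A and KIF23 of the central spindle and KIF14 of the midbody, grouped under other roles, did not pass. Their blocked log2 fold changes against untreated were -0.077 (PRC1), -0.12 (KIF20A), -0.00029 (KIF23) and 0.012 (KIF14), so the fall was not shared by all genes of cytokinesis. Values for single genes are log2 fold changes of the edgeR fit with the replicate block, each with its SE and its p adjusted over all tested genes, and in the fit by group alone the adjusted p of ECT2 and ANLN against untreated was 0.9999. ECT2, the guanine nucleotide exchange factor that activates RhoA at the cell equator, was at 174, 146 and 156 CPM in SM replicates 1 to 3, at 179, 174 and 163 CPM in DSM replicates and at 184, 170.1 and 172 CPM in untreated replicates. SM replicates 2 and 3 were the lowest of the 9 libraries, and SM replicate 1 was above untreated replicates 2 and 3, so the groups overlapped while each SM culture was below its own pair. ECT2 fell by 9.73% with SM against untreated (log2 fold change -0.15, SE 0.036, adjusted p = 0.0246), and the SM against DSM value of -0.12 (SE 0.037, adjusted p = 0.0697) did not pass. ANLN, the anillin scaffold of the contractile ring, was at 260.4, 209 and 209.7 CPM with SM, at 280.3, 253 and 235 CPM with DSM and at 274, 244 and 226 CPM without treatment. Within each replicate number SM was lowest, but the level of the libraries numbered 1 was high enough for the groups to overlap. ANLN fell against untreated (-0.13, SE 0.034, adjusted p = 0.0336) and against DSM (-0.18, SE 0.034, adjusted p = 0.00244), by 8.84% and 11.8%. With TMM scaling left out, the ANLN difference to untreated was -0.13 and lost its call (adjusted p = 0.0592), as edgeR gave it.

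The ECT2 and ANLN calls against untreated were lost without SM replicate 2, without SM replicate 3 or without any 1 untreated culture. Without SM replicate 2 the blocked edgeR log2 fold change was -0.098 for ECT2 (adjusted p = 0.13) and -0.088 for ANLN (adjusted p = 0.153). Without SM replicate 3 it was -0.16 for ECT2 (adjusted p = 0.0643) and -0.14 for ANLN (adjusted p = 0.0838), and DLGAP5 passed instead with -0.17 (adjusted p = 0.0437). Without untreated replicate 1, 2 or 3 the ECT2 value was -0.16, -0.15 and -0.14 (adjusted p = 0.116, 0.168 and 0.26). Without the same libraries the ANLN value was -0.15, -0.11 and -0.14 (adjusted p = 0.145, 0.306 and 0.191). In the libraries numbered 2 and 3 alone both passed, with -0.18 for ECT2 (adjusted p = 0.0329) and -0.16 for ANLN (adjusted p = 0.0439). The call of ANLN against DSM held without any 1 of the 9 libraries.

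**Figure D3:**
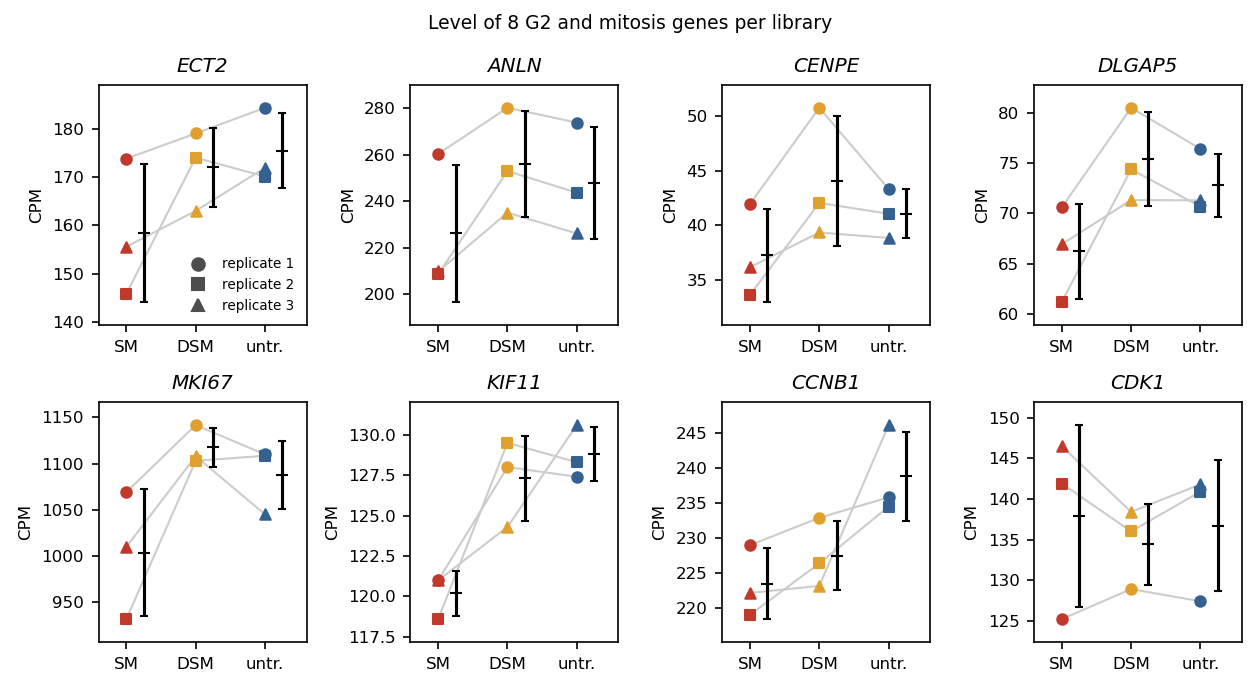
CPM (vertical axis, cut to the range of each gene) of the 5 genes that passed a test and of KIF11, CCNB1 and CDK1, by group. Points are libraries, marker shapes give the replicate number, grey lines join libraries of 1 number, and black bars are the group mean and SD (n = 3). All genes shown except CDK1 are lower with SM than without treatment in each of the 3 pairs, while CDK1 overlaps throughout.

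Among kinetochore genes CENPE separated the 2 antibiotics most. CENPE, a kinesin that carries chromosomes to the spindle equator, was at 41.9, 33.6 and 36.1 CPM in SM replicates 1 to 3, at 50.8, 42.0 and 39.3 CPM in DSM replicates and at 43.3, 41.0 and 38.8 CPM in untreated replicates. DSM replicate 1 was the highest and SM replicate 2 the lowest of the 9, and SM replicate 1 overlapped the other groups. CENPE fell by 15.2% with SM against DSM (-0.24, SE 0.049, adjusted p = 0.0054), while the values against untreated were -0.14 (SE 0.049, adjusted p = 0.146) for SM and 0.096 (SE 0.048, adjusted p = 0.999) for DSM, neither of which passed. Without DSM replicate 1 the blocked difference between SM and DSM was -0.19 and lost its call (edgeR adjusted p = 0.0655). CENPF, a large corona protein of the outer kinetochore, was at 377, 322 and 342 CPM with SM, 407, 381 and 348 CPM with DSM and 372, 366 and 344 CPM without treatment. SM replicate 2 was again the lowest and DSM replicate 1 the highest library, the groups overlapped, and the SM against DSM value of -0.12 (SE 0.038, adjusted p = 0.0704) did not pass. Without SM replicate 1, CENPF (-0.15, adjusted p = 0.0386) and ECT2 (-0.16, adjusted p = 0.0208) passed against DSM too, in the blocked edgeR fit.

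The remaining kinetochore genes did not pass. NDC80 and NUF2 form one arm of the NDC80 complex, which grips microtubule ends. NDC80 was at 23.9, 23.9 and 25.2 CPM with SM, below all 3 DSM cultures at 27.3, 26.3 and 25.5 CPM. Untreated cultures had 27.4, 23.3 and 25.2 CPM. NDC80 values were -0.11 (SE 0.054, adjusted p = 0.303) for SM against DSM and 0.06 (SE 0.053, adjusted p = 0.999) for DSM against untreated. NUF2, its partner, was at 23.9, 23.8 and 24.9 CPM with SM, 24.2, 24.1 and 22.4 CPM with DSM and 23.3, 24.4 and 22.3 CPM without treatment, with the groups overlapping, and had the largest positive value of the set for SM against untreated (0.055, SE 0.052, adjusted p = 0.689). CENPA, the histone H3 variant that marks centromeres, was at 26.0, 23.9 and 24.0 CPM with SM, 27.7, 21.6 and 24.7 CPM with DSM and 27.3, 24.3 and 26.5 CPM without treatment. The lowest CENPA level was in DSM replicate 2, and all 3 groups overlapped. For DSM against untreated the CENPA value was -0.08 (SE 0.052, adjusted p = 0.999).

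Of the 8 genes for spindle assembly and microtubule binding, DLGAP5 stood out. DLGAP5 (HURP) stabilises the microtubules of kinetochore fibres and was at 70.6, 61.2 and 66.9 CPM with SM, 80.5, 74.4 and 71.3 CPM with DSM and 76.4, 70.7 and 71.3 CPM without treatment. All SM cultures were below all DSM and all untreated cultures, by a narrow margin between SM replicate 1 and untreated replicate 2. DLGAP5 fell by 12% with SM against DSM (-0.18, SE 0.039, adjusted p = 0.00541) and missed the threshold against untreated (-0.13, SE 0.038, adjusted p = 0.0603). Without DSM replicate 2 the difference between the antibiotics was -0.16 and lost its call (edgeR with block, adjusted p = 0.0703), and without DSM replicate 3 the difference to untreated, -0.13, gained one (adjusted p = 0.0467). PRC1, which bundles the antiparallel microtubules of the central spindle, averaged 108 ± 4.16 CPM with SM, 116 ± 2.46 with DSM and 114 ± 3.95 without treatment (SD, n = 3 each), and its blocked values of -0.077 (SE 0.033, adjusted p = 0.263) against untreated and -0.10 (SE 0.033, adjusted p = 0.0916) against DSM did not pass. The blocked log2 fold changes of HMMR, TPX2, NUSAP1, ASPM, CKAP2 and CKAP5 ran from -0.054 (HMMR) to 0.0098 (CKAP5) for SM against untreated, and none passed. CKAP5, the microtubule polymerase, had the most reads of these, at 436 to 475 CPM over the 9 libraries.

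The 7 genes grouped here as mitotic kinesins gave negative values for SM against DSM and passed no test. The kinesin CENPE, which passed against DSM, is grouped with the kinetochore genes above. KIF11 (Eg5), which pushes the spindle poles apart, was at 121, 119 and 121 CPM with SM, 128, 129.5 and 124 CPM with DSM and 127, 128 and 131 CPM without treatment. All SM cultures were below all others, yet the adjusted p did not pass (-0.099, SE 0.033, adjusted p = 0.115 against untreated). KIF20A, a motor of the central spindle, was at 104, 94.7 and 92.5 CPM with SM, 110.0, 102 and 101 CPM with DSM and 108, 101 and 107 CPM without treatment, with SM replicates 2 and 3 lowest and SM replicate 1 inside the range of the other groups. Its value for SM against untreated was -0.12 (SE 0.035, adjusted p = 0.0806). KIF2C, which takes microtubules apart at kinetochores, was at 116, 118 and 119 CPM with SM, below the 122, 125 and 121 CPM with DSM and the 119.7, 129 and 127 CPM without treatment, with no overlap (-0.085, SE 0.033, adjusted p = 0.207 against untreated). KIF14, which helps the midbody to form, was at 52.0, 53.4 and 53.2 CPM with SM, 53.0, 57.6 and 53.8 CPM with DSM and 50.1, 54.6 and 52.7 CPM without treatment. KIF14 groups overlapped, and it had one of the 4 largest positive values for DSM against untreated (0.063, SE 0.038, adjusted p = 0.999). KIF4A, KIF20B and KIF23 had blocked values of -0.072, -0.00078 and -0.00029 for SM against untreated.

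Genes of chromosome structure and the passenger complex included MKI67, the gene of the set with the most reads. It was at 1069, 931 and 1009.7 CPM in SM replicates 1 to 3, at 1142, 1103 and 1108 CPM in DSM replicates and at 1109.8, 1108 and 1045 CPM in untreated replicates. All SM cultures were below all DSM cultures, and SM replicate 1 was above untreated replicate 3. MKI67 fell by 10.3% with SM against DSM (-0.16, SE 0.037, adjusted p = 0.0158), and its value against untreated was -0.12 (SE 0.037, adjusted p = 0.0965). The call against DSM was lost without SM replicate 2 (-0.10, adjusted p = 0.114), without DSM replicate 2 (-0.15, adjusted p = 0.101) and without DSM replicate 3 (-0.15, adjusted p = 0.0994) in the blocked edgeR fit. Without SM replicate 1 MKI67 also passed against untreated (-0.15, adjusted p = 0.0265). TOP2A, the topoisomerase that untangles sister DNA, was at 389.5, 356 and 406 CPM with SM, 407, 406 and 411 CPM with DSM and 390.5, 401 and 412 CPM without treatment. SM replicate 2 was the lowest library, the groups overlapped, and the value against untreated was -0.064 (SE 0.035, adjusted p = 0.427). BIRC5 (survivin), a subunit of the passenger complex, was at 198, 208 and 208 CPM with SM, 203, 204 and 206 CPM with DSM and 202, 211 and 222 CPM without treatment, with overlapping groups and -0.047 (SE 0.032, adjusted p = 0.544) for SM against untreated.

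The cyclins and CDK1 differed in where the untreated cultures stood. CCNB1, the cyclin that activates CDK1 at mitotic entry, was at 229, 219 and 222 CPM with SM, 233, 226 and 223 CPM with DSM and 236, 234 and 246 CPM without treatment. All 6 antibiotic-treated cultures were below all 3 untreated ones, while SM and DSM overlapped. Neither difference passed, with -0.096 (SE 0.032, adjusted p = 0.128) for SM and -0.07 (SE 0.032, adjusted p = 0.999) for DSM, and the SM against DSM interval was -0.093 to 0.042. CCNA2, the cyclin of S and G2 phase, was at 57.3, 63.4 and 64.0 CPM with SM, 57.9, 63.2 and 62.8 CPM with DSM and 60.0, 68.4 and 65.8 CPM without treatment. In each pair both antibiotics were below untreated, the groups overlapped, with the libraries numbered 1 low in each, and the value for DSM was -0.078 (SE 0.036, adjusted p = 0.999). CDK1 was at 125, 142 and 146 CPM with SM, 129, 136 and 138 CPM with DSM and 127, 141 and 142 CPM without treatment, with overlapping groups. Its SM against untreated value was 0.011 (SE 0.033, adjusted p = 0.919), with an interval of -0.057 to 0.079. CCNB2 and CKS2 had values of -0.066 and -0.035 for SM against untreated, and neither passed.

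The CDC25 phosphatases, which remove the inhibitory phosphates from CDK1, had positive values for SM against untreated. CDC25B was at 342, 316 and 327 CPM with SM, 326, 306 and 328 CPM with DSM and 333, 305 and 326 CPM without treatment. CDC25C was at 9.48, 10.5 and 10.4 CPM with SM, 9.41, 10.1 and 9.36 CPM with DSM and 8.72, 10.4 and 10.3 CPM without treatment. Each SM culture was above its untreated pair for both genes, the groups overlapped, and the values of 0.031 (SE 0.031, adjusted p = 0.714) for CDC25B and 0.05 (SE 0.072, adjusted p = 0.811) for CDC25C did not pass.

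Mitotic kinases gave no call. PLK1, the polo-like kinase, was at 217, 204 and 206 CPM with SM, 225, 212 and 208 CPM with DSM and 224, 202 and 220.0 CPM without treatment. Its groups overlapped, and its value for SM against untreated was -0.042 (SE 0.033, adjusted p = 0.611). AURKA, which matures the spindle poles, was at 93.8, 77.8 and 86.1 CPM with SM, 103, 85.6 and 87.9 CPM with DSM and 96.4, 85.5 and 87.7 CPM without treatment. In each pair the DSM culture had more than the SM culture, and the libraries numbered 1 were high in every group (-0.098, SE 0.036, adjusted p = 0.149 for SM against DSM). AURKB, the kinase of the passenger complex, was at 96.5, 106 and 106 CPM with SM, 102, 106 and 114 CPM with DSM and 103, 108 and 116 CPM without treatment. Here the libraries numbered 1 were the lowest of their groups, each SM culture was below its untreated pair, and the value was -0.085 (SE 0.033, adjusted p = 0.212).

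Spindle checkpoint genes and partners of the APC/C followed no common direction. BUB1, the checkpoint kinase, was at 92.2, 86.1 and 88.0 CPM with SM, 94.9, 94.1 and 90.1 CPM with DSM and 95.6, 93.3 and 91.7 CPM without treatment, with SM replicates 2 and 3 lowest (-0.074, SE 0.034, adjusted p = 0.302 against untreated). MAD2L1, the MAD2 protein that holds CDC20 inactive, was at 45.0, 53.3 and 52.5 CPM with SM, 42.6, 50.4 and 45.6 CPM with DSM and 46.2, 50.6 and 49.7 CPM without treatment. Each SM culture was above its DSM pair, though the groups overlapped, and MAD2L1 had the largest positive value of the set for SM against DSM (0.12, SE 0.042, adjusted p = 0.116), which did not pass. For DSM against untreated it had the most negative value of the set (-0.081, SE 0.041, adjusted p = 0.999). CDC20 was at 239, 239.8 and 227 CPM with SM, 248, 232 and 234 CPM with DSM and 249, 243 and 249 CPM without treatment. All SM cultures were below all untreated ones, with DSM replicate 1 inside the untreated range, and the value against untreated was -0.071 (SE 0.033, adjusted p = 0.31). BUB1B, BUB3 and TTK had blocked values of 0.013, -0.0063 and -0.022 for SM against untreated, and UBE2C had -0.044.

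FOXM1, the transcription factor of the set, did not pass in any comparison. It was at 291, 321 and 326 CPM with SM, 298, 336 and 338 CPM with DSM and 301, 319.6 and 346 CPM without treatment. The libraries numbered 1 were lowest in each group, the groups overlapped, and the value for SM against untreated was -0.043 (SE 0.032, adjusted p = 0.582).

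Replicate number took a larger share of the variation of the set than group did. Over the 43 genes the median share of the sum of squares was 47.8% for replicate number and 22.1% for group, against 52.2% and 14.2% over all tested genes. The 2 replicate-number terms passed for 21 of the 43 genes (48.8%), against 40.7% of all tested genes (edgeR, adjusted). Libraries numbered 1 were higher than the mean of numbers 2 and 3 by 0.25 on the log2 scale for ANLN, 0.23 for CENPE and 0.20 for AURKA, and the difference was -0.17 for MAD2L1, -0.16 for FOXM1 and -0.15 for CDK1. SM replicate 2 was the lowest of the 9 libraries for 14 genes and SM replicate 1 for 9, and DSM replicate 1 was the highest for 14. How often these libraries were the extremes over all tested genes was not counted, so these counts are not a trait of the set. SM replicate 2 also had the smallest total count, and the part of its depth in these values was not tested.

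**Figure D4:**
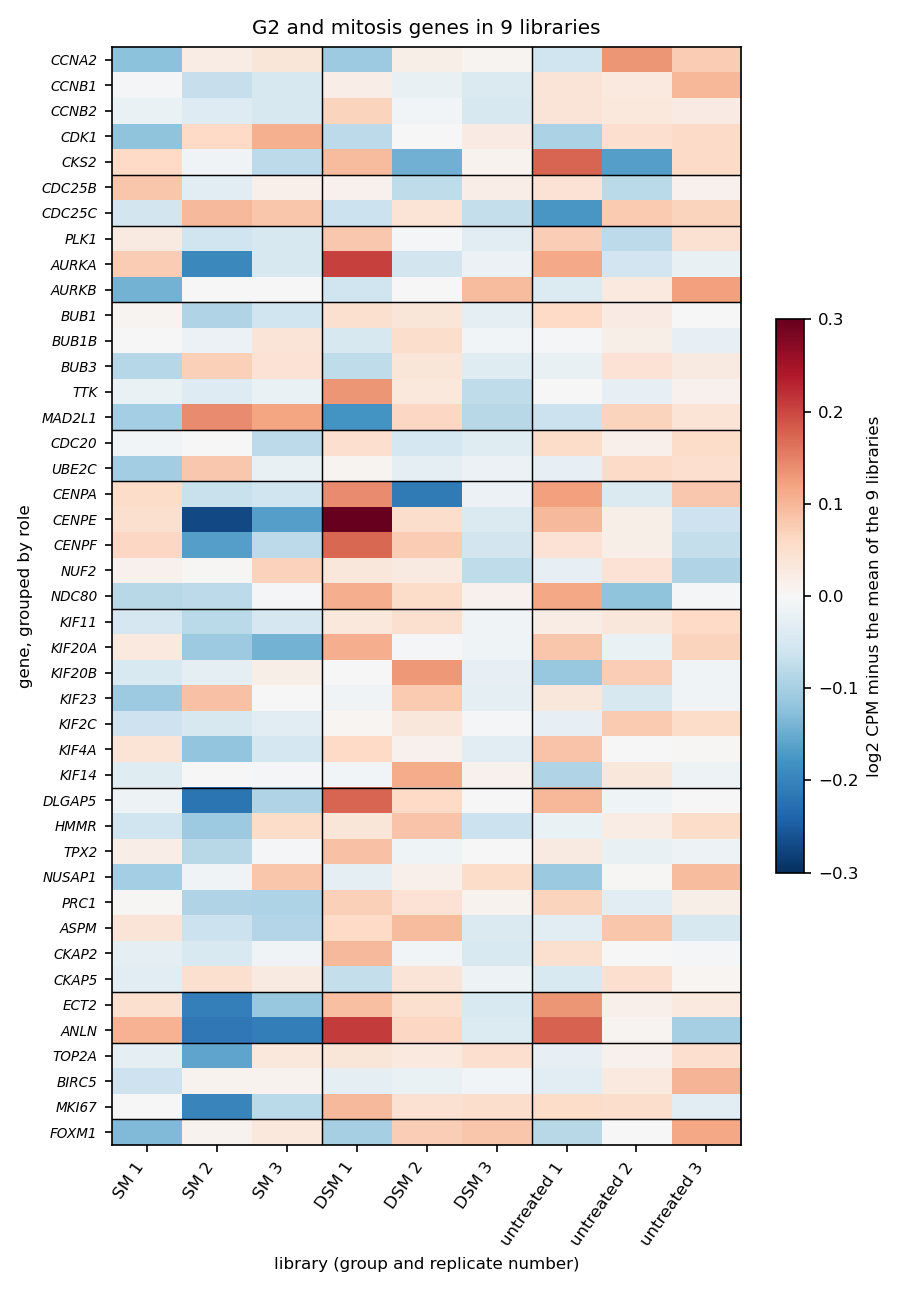
Log2 CPM of each of the 43 genes (rows, grouped by role) minus its mean over the 9 libraries, in SM, DSM and untreated replicates 1 to 3 (columns). Red is above and blue below the gene's mean. SM replicate 2 is dark blue for ANLN, CENPE and DLGAP5, while the columns numbered 1 are red for ANLN and AURKA in all 3 groups.

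Other lists of the same pathway, 135 further genes of kinetochores, kinesins, condensin, cohesin, cytokinesis, the APC/C, the DREAM complex and mitotic regulation, were read with the same fit. For SM against untreated 97 of the 135 (71.9%) had a negative blocked log2 fold change, against 50.6% of all genes, with a median of -0.033. With the block 2 of them fell (1.48%, against 1.54% of all genes) and 0 rose (against 1.2%), so the share that passed was close to that of all genes. At an unadjusted blocked p under 0.05, 20 were lower (14.8%, against 7.79% of all genes) and 3 higher (2.22%, against 7.05%). CENPI, a protein of the inner kinetochore, fell to 27.4 ± 3.03 CPM with SM, against 32.9 ± 0.964 CPM in untreated cultures (SD, n = 3 each; log2 fold change -0.26, SE 0.057, adjusted p = 0.0105). PIMREG, a mitotic regulator, fell to 31.2 ± 0.827 CPM with SM, against 35.2 ± 1.44 CPM in untreated cultures (-0.17, SE 0.046, adjusted p = 0.0411). By list the negative share for SM against untreated ran from 53.8% (cohesin, 7 of 13) and 58.3% (DREAM and B-MYB complex, 7 of 12) to 100%. It was 100% for the 10 further cytokinesis genes, none of which passed, and for 2 further genes of the passenger complex. For DSM against untreated 85 of the 135 were negative (63%, against 50.4% of all genes) and 0 passed, with or without the block, in edgeR. At an unadjusted blocked p under 0.05 there were 4 lower (2.96%, against 2.23% of all genes) and 0 higher. For SM against DSM 83 were negative (61.5%, against 50% of all genes), 2 fell (1.48%, against 2.15% of all genes) and 1 rose (0.741%, against 1.73%). With an unadjusted blocked p under 0.05 there were 18 lower (13.3%, against 8.52% of all genes) and 3 higher (2.22%, against 7.71%). CENPI fell to 27.4 ± 3.03 CPM with SM, against 32.3 ± 1.3 CPM with DSM (-0.23, SE 0.057, adjusted p = 0.0191), and SPAG5 (astrin), a spindle protein, fell to 91.3 ± 6.05 CPM with SM, against 101 ± 2.61 CPM with DSM (-0.15, SE 0.038, adjusted p = 0.0231). ANAPC16, a subunit of the APC/C, rose to 85.2 ± 13.9 CPM with SM, against 76.9 ± 9.86 CPM with DSM (0.14, SE 0.036, adjusted p = 0.0226).

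Among 38 genes of S phase and replication, 24 had a negative blocked value for SM against untreated (63.2%, against 50.6% of all genes) and 1 passed, lower (2.63%, against 1.54%). At an unadjusted blocked p under 0.05, 8 were lower (21.1%, against 7.79% of all genes) and 1 higher (2.63%, against 7.05%). For DSM against untreated 27 of the 38 were negative (71.1%, against 50.4%), and edgeR called 0 with or without the block. It had 4 lower at an unadjusted blocked p under 0.05 (10.5%, against 2.23% of all genes) and 0 higher (against 1.93%). TYMS, thymidylate synthase, fell to 122 ± 6.92 CPM with SM, against 135 ± 5.14 CPM in untreated cultures (-0.15, SE 0.037, adjusted p = 0.0214). For SM against DSM 21 of the 38 were negative (55.3%, against 50%), 0 fell and 1 rose (2.63%, against 1.73%). With an unadjusted blocked p under 0.05 there were 4 lower (10.5%, against 8.52% of all genes) and 4 higher (10.5%, against 7.71%). GINS3, a subunit of the replicative helicase, rose to 36.5 ± 4.12 CPM with SM, against 32.3 ± 3.12 CPM with DSM (0.17, SE 0.046, adjusted p = 0.0323). Of 11 CDK inhibitors and G1 cyclins only CDKN2C passed, lower with SM against both other groups. That was 9.09% of the list, against 1.54% of all genes (SM against untreated) and 2.15% (SM against DSM). Negative blocked values numbered 5 of 11 for SM against untreated, 9 for DSM against untreated and 3 for SM against DSM. CDKN2C, an inhibitor of CDK4 and CDK6, fell to 14.2 ± 2.05 CPM with SM, against 16.7 ± 1.47 CPM in untreated cultures (-0.23, SE 0.059, adjusted p = 0.0325), and against 17.8 ± 2.43 CPM with DSM (-0.32, SE 0.059, adjusted p = 0.0018). All of these calls came from the edgeR fit with the replicate block.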

How the data were processed

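RNA from 9 SW620 cultures was sequenced as poly(A)-selected libraries, per the labels' protocols (TRIzol, NuGEN Universal Plus mRNA-seq). The build hg38 is given in the submitters' processing notes, and so are featureCounts 2.0.0, TopHat2 2.1.1, DESeq2 1.26.0, cutadapt 3.4, bcl2fastq 2.20.0.422, MultiQC 1.10.1 and FastQC 0.11.9. For annotation, strand setting and multi-mapping reads, the sources used here give nothing, which leaves near-identical or overlapping genes uncertain. Tests used the raw counts per gene that the authors deposited without normalization. The authors' normalized signal, the second deposited table, was not tested.

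The 43 members, their roles and the other lists were chosen with earlier results of these data known. Counts were filtered with filterByExpr (minimum count 10, minimum total 15), scaled by TMM (factors 0.981 to 1.017) and fitted over all 9 libraries in edgeR 4.0.16 (R 4.3.3, quasi-likelihood, robust, two-sided F test). P-values were adjusted by Benjamini-Hochberg over 15619 genes at 0.05. CPM uses the TMM-scaled library sizes, and log2 CPM a prior count of 2. The main fit has group alone, and the fit that adds replicate number as a block stands beside it. Deviations from the group means correlated at 0.227 to 0.582 for the 9 same-numbered pairs of libraries and at -0.404 to 0.161 for the others. Each same-numbered pair exceeded the set criterion of 0.1, but the highest of the others did too. In 18 of 18 cases the best match of a library in another group had its own number. The numbers were therefore taken to pair the cultures. The SE is the fold change divided by the root of F, and 95% intervals use edgeR's total degrees of freedom.

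Full values are given for members called in either fit, the 4 largest positive and negative blocked values per comparison, and MKI67, TOP2A, CCNB1, CDK1, PLK1, AURKA, AURKB, BUB1, CDC20, FOXM1 and BIRC5. KIF11, KIF20A and KIF2C were added after their values were seen, and so was PRC1, with group means in place of the level in each library. Other lists have up to 3 called genes each. Alternatives were DESeq2 1.42.0 and limma voom 3.58.1, other scalings and filters, the 2 groups alone, no robust estimation, and leaving out each library or all libraries numbered 1. Exon lengths came from GENCODE v29 and promoters from RefSeq. A planned search of the proteins for a KEN box was not run.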

Additional observations from a re-analysis of the deposited data

How the results depend on the processing

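The mean log2 fold change of the 43 genes kept its sign for SM against untreated (-0.0537 to -0.038 leaving out 1 library, -0.0587 to -0.0385 with the replicate block) and for SM against DSM (-0.0624 to -0.0345, and -0.0668 to -0.0374). For DSM against untreated it crossed 0 (-0.0133 to 0.0145, and -0.0107 to 0.0187) and was 0.00653 with library totals in place of TMM. Over 14 alternatives to the blocked fit, negative values numbered 31 (without SM replicate 1) to 37 of 43 for SM against untreated, 18 to 26 for DSM against untreated and 28 (libraries numbered 2 and 3) to 35 for SM against DSM.

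Members called went from 0 by group to 2 with the replicate block for SM against untreated (2 in DESeq2, 2 in limma voom, 1 without TMM) and from 0 to 4 for SM against DSM (4 in each of those). Leaving out 1 library gave 0 to 3 and 2 to 6 members with the block. All genes called for SM against untreated numbered 3 by group, 5 without the filter, 14 in DESeq2, 0 with the 2 groups alone and 0 to 3 leaving out 1 library. With the block they numbered 428, against 385 in DESeq2, 437 in limma voom and 390 without TMM, and 149 to 569 leaving out 1 library. For SM against DSM the counts were 0 by group, 3 without the filter and 11 in DESeq2, and 606 with the block, 510 in DESeq2, 610 in limma voom, 529 without TMM and 265 to 846 leaving out 1 library. DSM against untreated had 0 throughout, except 1 gene with the block in libraries numbered 2 and 3. The cause of these differences was not tested.

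Of 1155 single-gene values recomputed for the fit by group, 1132 stayed on the same side of the threshold and 23 gained a call, all with a replicate block. Of 770 for the blocked fit, 745 stayed on the same side, 22 lost a call and 3 gained one. Both sets cover only the genes that the rule for full values picked in each comparison. The calls that ECT2 and CENPF gained against DSM are therefore not among the 3. Values with no call in either fit changed sign 35 times for the fit by group and 18 times for the blocked fit, and no called value did. With 3 cultures a group, CDC25C (415 to 631 reads) had the widest interval.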
